A study of Mus musculus with 6 samples.

Results

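The genes described here are 9 transcripts of the red cell lineage: the embryonic globins Hbb-y, Hbb-bh1 and Hba-x, the later alpha globin Hba-a1, and Alas2, Slc4a1, Epor, Klf1 and Gata1. They were chosen by name, through the RefSeq accession that each array probe carries, from 20018 named genes, and 10 probes matched because Hbb-y has 2. The RNA came from endothelial cells that had been sorted by flow cytometry from the skin of C57Bl/6J mice and received no treatment afterwards. Samples numbered 1 to 3 were wild type, and samples numbered 1 to 3 lacked APJ, the receptor for the peptide apelin, so 6 one-colour Agilent arrays were compared. How the receptor gene was deleted, the surface markers of the sort and the number of animals pooled into a sample are not given in the sources used here. An embryonic stage stands in the names of the scanner files and in no label. The p-values therefore measure only the spread between these samples.

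In the mouse embryo, red cells of the first, yolk sac wave carry haemoglobin built from the embryonic chains: zeta, from Hba-x, paired with epsilon-y, from Hbb-y, or beta-h1, from Hbb-bh1. Red cells made later in the fetal liver carry alpha chains from Hba-a1 and Hba-a2 with adult-type beta chains, and the change from the first set to the second is called globin switching. Transcription of the globin genes and of the haem enzyme gene Alas2 depends on GATA1, which binds GATA motifs, and on KLF1, which binds CACCC motifs. Globins are best known from red cells, but alpha globin is also made in the endothelium of some arteries, where it acts in nitric oxide signalling, and some embryonic endothelium gives rise to blood cells.

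The promoter windows of Hbb-y, Hba-x, Hba-a1 and Alas2 are shown first, searched for the GATA and CACCC motifs named above. Whether these motifs have a part in the levels measured here was not tested. Of the 9 genes, 7 had an entry in the RefSeq promoter table (GRCm38.p6), and Hbb-bh1 and Slc4a1 had none. The windows hold the 200 bases before the listed start, and capitals mark GATAA and CACCC read on either strand. Hbb-y lies on the minus strand at chr7:103853208-103853407, Hba-x on the plus strand at chr11:32276400-32276599, Hba-a1 on the plus strand at chr11:32283472-32283671 and Alas2 on the plus strand at chrX:150547217-150547416.
Hbb-y: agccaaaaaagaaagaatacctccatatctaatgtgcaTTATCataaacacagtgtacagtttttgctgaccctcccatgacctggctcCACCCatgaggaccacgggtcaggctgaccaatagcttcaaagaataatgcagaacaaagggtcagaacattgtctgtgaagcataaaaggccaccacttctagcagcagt
Hba-x: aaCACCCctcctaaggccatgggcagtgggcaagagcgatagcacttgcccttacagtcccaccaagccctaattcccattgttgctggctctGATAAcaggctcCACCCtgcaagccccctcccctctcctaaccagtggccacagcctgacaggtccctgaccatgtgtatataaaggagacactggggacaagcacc
Hba-a1: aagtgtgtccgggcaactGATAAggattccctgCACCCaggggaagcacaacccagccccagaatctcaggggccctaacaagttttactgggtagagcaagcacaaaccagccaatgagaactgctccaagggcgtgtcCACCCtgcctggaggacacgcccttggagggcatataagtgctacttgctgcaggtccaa
Alas2: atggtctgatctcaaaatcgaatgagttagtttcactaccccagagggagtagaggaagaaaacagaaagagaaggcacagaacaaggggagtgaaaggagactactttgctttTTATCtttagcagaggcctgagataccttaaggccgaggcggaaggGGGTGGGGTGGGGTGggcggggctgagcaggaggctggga

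Both motifs were found in 6 of the 7 windows, those of Hbb-y, Hba-x, Hba-a1, Alas2, Epor and Klf1. Among 32817 mouse promoter windows of the same length, 18.1% held GATAA, 45.5% held CACCC and 6.88% held both. The Gata1 window held CACCC at 2 positions and GATAA at 0, and the windows of the later beta globins Hbb-bt and Hbb-bs also held GATAA at 0. These matches describe the letters in the window and were not set against any binding data.

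On each array between 50.36% and 58.01% of 55681 probes were well above background by the scanner software's call, no spot was saturated, and the array's 75th percentile of intensity lay between 251.8 and 399.7. Every level below is a log2 signal minus that percentile on the same array, and every difference is APJ knockout minus wild type on the log2 scale. Probes differ in their response, so the level of 1 gene is not ranked against that of another. Aplnr, which encodes APJ, read 3.35, 3.77 and 3.82 in wild type and 1.89, 1.71 and 2.26 in the knockout (limma adjusted p = 0.0237), although where its probe lies against the deletion is unknown. The 16 endothelial markers, among them Egfl7, Robo4 and Cldn5, were all above background, with a mean level of 5.03 to 5.21 on every array. Replicates 1 and 2 of both genotypes shared slide 1 and the replicates numbered 3 shared slide 2, and slides were also scanned separately.

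Transcripts of all 4 globins, Alas2, Slc4a1, Epor and Gata1 were well above background on all 6 arrays, whereas Klf1 was so on 1. None of the 8 genes that could be tested passed limma's test between genotypes after adjustment over everything tested, against 0.553% of the 24235 genes and unnamed probes tested. An unadjusted p under 0.05 was reached by 1 of the 8, Hbb-bh1, against 8.03% of everything tested. Of the 8 differences, 7 were above 0 with a median of 0.17, where 43.5% of all differences were above 0 with a median of -0.02. Several of the 8 genes rose and fell together over the arrays, so they are not independent observations. The count above 0 ran from 5, without wild-type replicate 1, to 8, without knockout replicate 2, when 1 array was left out. Hbb-bh1 was the only one of the 8 whose knockout arrays all lay above the wild-type arrays, a pattern found in 6.37% of everything tested.

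**Figure D1:**
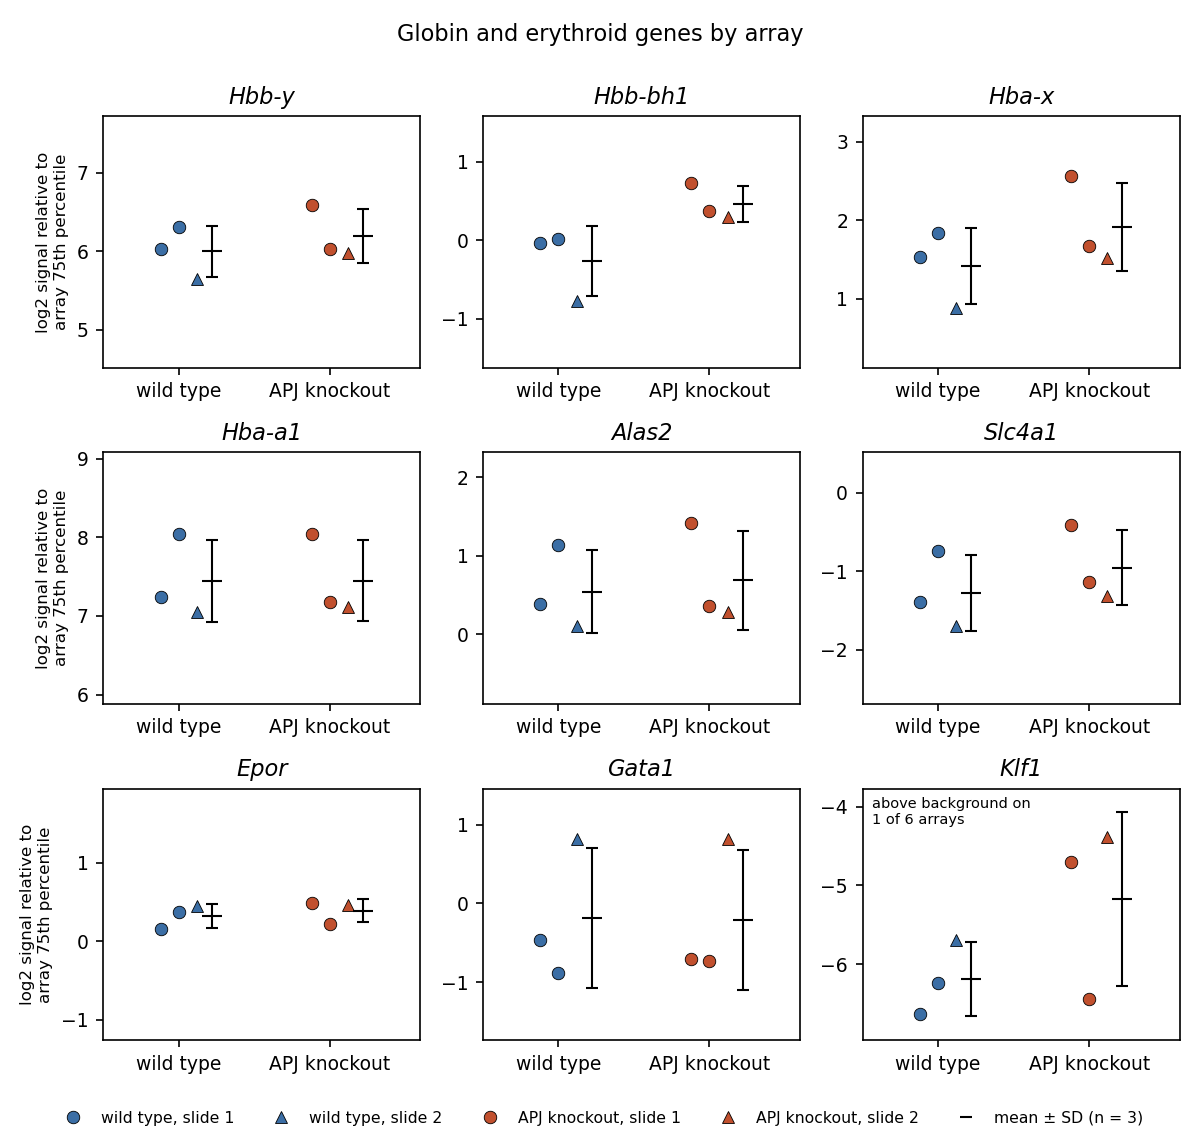
Level of each of the 9 genes on each array, as log2 signal relative to the array's 75th percentile, with wild type in blue, APJ knockout in red, slide 1 as circles, slide 2 as triangles, and the mean ± SD of 3 arrays as bars. The axes of all panels span the same number of log2 units. Hbb-bh1 separates by genotype, Gata1 by slide, and knockout replicate 1 stands highest or nearly so for the globins, Alas2 and Slc4a1.

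Hbb-bh1 (NM_008219, chromosome 7), the beta-h1 chain of the earliest red cells, read -0.03, 0.02 and -0.77 on wild-type arrays 1 to 3 and 0.73, 0.37 and 0.30 on knockout arrays 1 to 3. All knockout arrays were higher than all wild-type arrays, and the low wild-type replicate 3 gave the group its wide spread. The wild-type mean was -0.26 ± 0.44 and the knockout mean 0.47 ± 0.23 (SD, n = 3 each). They differed by 0.73 ± 0.24 (SE), or 1.65-fold. It missed the adjusted threshold (limma adjusted p = 0.425, and 0.114 to 0.999 over 16 other settings). An exact two-sided permutation test gave p = 0.1, the smallest that 3 arrays against 3 allow. The difference was 0.56 within slide 1 and 1.07 within slide 2.

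Hba-x (NM_010405, chromosome 11), the zeta chain that takes the alpha position in embryonic haemoglobin, read 1.53, 1.84 and 0.88 in wild type and 2.56, 1.67 and 1.52 in the knockout. The groups overlapped, with knockout replicate 1 highest and wild-type replicate 3 lowest. The difference was 0.50 ± 0.35 (SE, limma adjusted p = 0.981), from 1.42 ± 0.49 to 1.91 ± 0.56 (SD, n = 3 each). Slide 1 alone gave 0.43 and slide 2 alone 0.63. Leaving out knockout replicate 1 reduced it to 0.18, and leaving out wild-type replicate 3 to 0.23.

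Hbb-y (NM_008221, chromosome 7), the epsilon-y chain, is the embryonic beta-type globin that persists longest during development. Its brighter probe read 6.03, 6.31 and 5.65 in wild type and 6.58, 6.02 and 5.97 in the knockout, and its other probe 5.72, 6.04 and 5.19 against 6.31, 5.67 and 5.44. Both probes ranked knockout replicate 1 highest and wild-type replicate 3 lowest, and the genotypes overlapped on both. The brighter probe differed by 0.20 ± 0.23 (SE, limma adjusted p = 1) and the other by 0.16, each less than the SD between arrays of 1 genotype. Leaving out knockout replicate 1 reduced the brighter probe's difference to 0.003, and leaving out wild-type replicate 3 to 0.025. The distance between the probes averaged 0.35 ± 0.10 over wild-type arrays and 0.39 ± 0.14 over knockout arrays (SD, n = 3 each).

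Hba-a1 (NM_008218, chromosome 11), an alpha chain of fetal and adult haemoglobin, read 7.24, 8.04 and 7.05 in wild type and 8.04, 7.18 and 7.12 in the knockout. Wild-type replicate 2 and knockout replicate 1 were the high arrays, and the other 4 lay close together. The group means were 7.45 ± 0.53 and 7.45 ± 0.52 (SD, n = 3 each), so the spread within each genotype far exceeded the difference of 0.0024 ± 0.34 (SE, limma adjusted p = 1). Its near-identical neighbour Hba-a2 read 9.19, 9.79 and 8.77 in wild type and 9.66, 9.12 and 8.84 in the knockout, a difference of -0.04 ± 0.31 (SE). Because probes for these copies may each bind the transcripts of both, the Hba-a1 and Hba-a2 signals are uncertain as measures of single genes.

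The adult-type beta globins gave differences of the same small size. Hbb-bt read 7.13, 7.84 and 7.17 in wild type and 7.88, 7.07 and 7.30 in the knockout, a difference of 0.04 ± 0.27 (SE). Hbb-b2 read 4.81, 5.56 and 4.58 against 5.58, 4.75 and 4.73, a difference of 0.03 ± 0.33 (SE). On both, the same 2 arrays stood high as for Hba-a1. The theta globin Hbq1b, above background on 2 of 3 wild-type and 3 of 3 knockout arrays, differed by 0.11 ± 0.23 (SE), and Hbb-bh2 and Hbq1a were above background on 0 of 6 arrays. None of the 4 other globins that could be tested passed (limma adjusted p = 1 for each), and near-identical beta copies make Hbb-bt and Hbb-b2 uncertain as single genes too.

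The ratio of embryonic to later globin signal within an array removes what raises or lowers all globins together, and a change in it shows unequal change only. The mean of Hbb-y, Hbb-bh1 and Hba-x minus Hba-a1 gave -4.73, -5.32 and -5.13 on wild-type arrays and -4.75, -4.49 and -4.52 on knockout arrays. Knockout replicates 2 and 3 lay above all wild-type arrays, while knockout replicate 1 lay beside wild-type replicate 1. The mean ratio was higher by 0.47 ± 0.19 (SE of the difference of means) in the knockout, or 1.39-fold, and by 0.40 on slide 1 and 0.61 on slide 2. Leaving out wild-type replicate 1 gave 0.64 and leaving out knockout replicate 1 gave 0.55, in both cases with no overlap. Against the mean of Hba-a1, Hbb-bt and Hbb-b2 the wild-type ratios were -3.89, -4.42 and -4.35 and the knockout ratios -3.88, -3.65 and -3.79. The 3 knockout arrays were then above the 3 wild-type arrays, narrowly for replicate 1 of each, with a difference of 0.45 ± 0.18 (SE). No p is given for these ratios, since they combine genes picked by name with earlier results known. How often ratios of other genes keep the genotypes apart was not counted, for these ratios or those below.

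The embryonic globins contributed unequally to that ratio. Relative to Hba-a1, Hba-x differed by 0.49 ± 0.16 with no overlap between genotypes, Hbb-bh1 by 0.72 ± 0.28 with overlap, and Hbb-y by 0.20 ± 0.19 with overlap (SE of the difference of means). Which of them overlapped depended on the later globin used. Relative to Hbb-bt, Hba-x overlapped (0.46 ± 0.24) and Hbb-bh1 did not (0.69 ± 0.27). Relative to Hba-a2, none of the 3 overlapped, with Hbb-y at 0.24 ± 0.13. The distance from Hbb-y to Hbb-bh1 came to 6.06, 6.29 and 6.42 on wild-type arrays and 5.85, 5.66 and 5.67 on knockout arrays, so Hbb-y was lower relative to Hbb-bh1 in every knockout array, by a mean of -0.53 ± 0.12. The distance from Hba-a1 to Hbb-bt, an alpha and a beta chain of the same haemoglobins, differed by -0.04 ± 0.14. As levels, the 3 embryonic globins averaged 2.38 ± 0.41 over wild-type and 2.86 ± 0.38 over knockout arrays, and Hba-a1, Hbb-bt and Hbb-b2 averaged 6.60 ± 0.48 and 6.63 ± 0.47 (SD, n = 3 each).

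**Figure D2:**
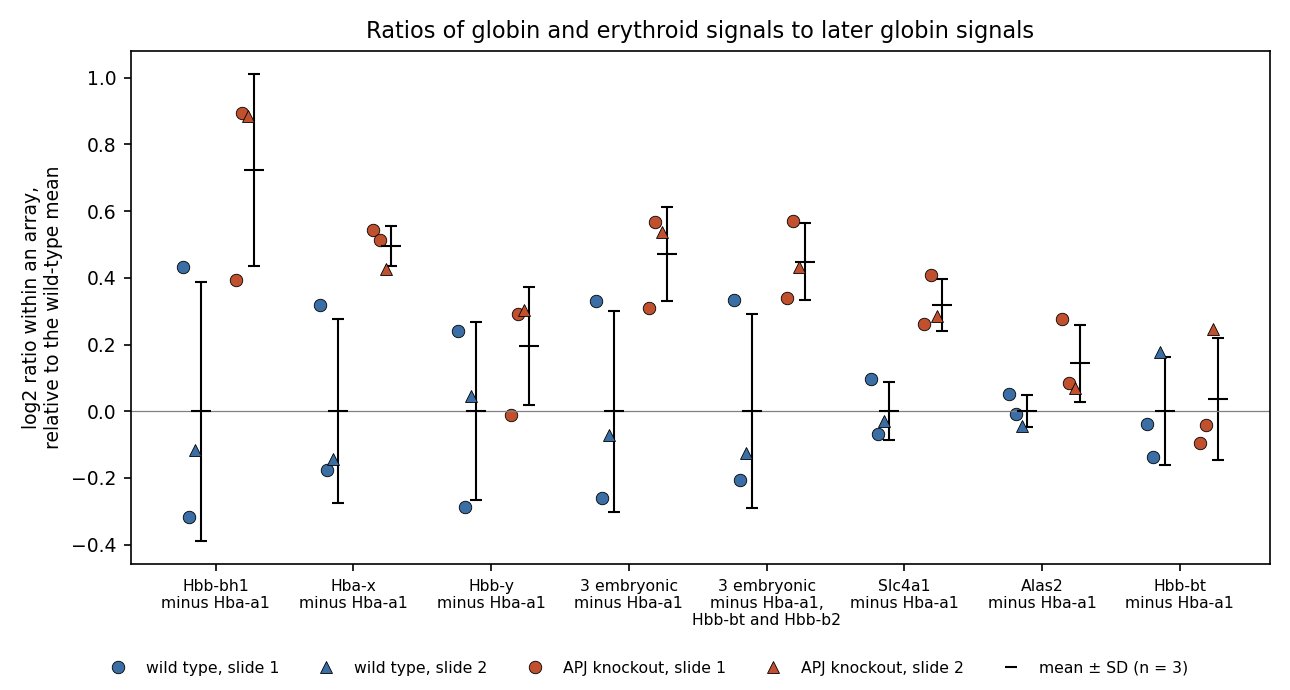
Log2 signal of each gene or mean of genes minus that of later globins on the same array, set relative to the wild-type mean, with the 6 arrays as points coloured by genotype and shaped by slide and the mean ± SD of 3 arrays as bars. The ratios of Hba-x, Slc4a1 and Alas2 to Hba-a1 and of the 3 embryonic globins to 3 later globins do not overlap between genotypes, while those of Hbb-bh1 and Hbb-y to Hba-a1 do. The gap is narrow for Alas2 and for the 3 embryonic globins. How often ratios of other genes keep the genotypes apart was not counted. Which embryonic globins overlap depends on the later globin used.

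Alas2 (NM_009653, chromosome X), the erythroid enzyme for the first step of haem synthesis, read 0.39, 1.13 and 0.11 in wild type and 1.42, 0.36 and 0.29 in the knockout. It followed Hba-a1 from array to array, with the same arrays high, and the groups overlapped. The difference was 0.15 ± 0.38 (SE, limma adjusted p = 1). Relative to Hba-a1, Alas2 was higher in all knockout arrays by a mean of 0.14 ± 0.07 (SE of the difference of means). The gap was narrow, with wild-type replicate 1 at -6.85 and knockout replicate 3 at -6.83.

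Slc4a1 (NM_011403, chromosome 11), the band 3 anion exchanger of the red cell membrane, read -1.38, -0.75 and -1.69 in wild type and -0.41, -1.13 and -1.32 in the knockout. Knockout replicate 1 and wild-type replicate 2 were again the highest, wild-type replicate 3 the lowest, and the groups overlapped. The difference was 0.32 ± 0.32 (SE, limma adjusted p = 1), or 0.052 without knockout replicate 1 and 0.11 without wild-type replicate 3. Relative to Hba-a1 it was 0.32 ± 0.07 (SE of the difference of means), with every knockout array above every wild-type array, and 0.32 within slide 1 and 0.31 within slide 2.

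Epor (NM_010149, chromosome 9), the erythropoietin receptor, which endothelial cells also express, read 0.15, 0.37 and 0.45 in wild type and 0.48, 0.22 and 0.46 in the knockout. It spanned a narrow range, did not share the order of the globins below the top array, and the genotypes overlapped. The difference was 0.06 ± 0.12 (SE, limma adjusted p = 1).

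Wild-type replicate 3 was the lowest array for the 4 globins, Alas2 and Slc4a1, and knockout replicate 1 was the highest for 5 of these 6. For Hba-a1, wild-type replicate 2 stood at the same 8.04 as knockout replicate 1. In these bulk samples fewer red cells and less globin RNA per cell cannot be told apart. As a description over the same 6 arrays, Pearson's r was 0.98 between Hbb-y and Hba-x and between Alas2 and Hba-a1, 0.96 between Alas2 and Slc4a1, 0.47 between Hbb-bh1 and Hba-a1, and 0.15 between Hbb-y and Epor.

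Gata1 (NM_008089, chromosome X), the zinc finger factor required for red cell, megakaryocyte and mast cell development, read -0.47, -0.89 and 0.82 in wild type and -0.71, -0.74 and 0.82 in the knockout. Both slide 2 arrays were high and all 4 slide 1 arrays low. The order ran against that of the globins, with wild-type replicate 3 second highest and wild-type replicate 2 lowest, and over the 6 arrays Pearson's r was -0.72 with Hbb-y and -0.67 with Hba-a1, as a description. Between genotypes it differed by -0.03 ± 0.58 (SE, limma adjusted p = 1). In a limma fit with slide and genotype, added after the data were seen, 6.74% of everything tested passed as higher on slide 2. Gata1 was among them, higher by 1.52 ± 0.13 (SE, limma adjusted p = 0.00616). Leaving out either slide 2 array, wild-type replicate 3 or knockout replicate 3, ended that call (limma adjusted p = 0.088 and 0.086) at values of 1.55 and 1.50. The other 7 tested genes did not pass the slide comparison, and the globins, Alas2 and Slc4a1 had slide differences from -0.70 for Hba-x to -0.42 for Hbb-y.

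Most mast cell markers and some markers of other blood cells moved with Gata1 across slides. Of the 6 mast cell markers that could be tested, 5 rose past the threshold on slide 2 (6.74% of everything tested). Among them were Cpa3, a mast cell protease (1.90 ± 0.12, limma adjusted p = 0.0041), Hdc, the histamine-forming enzyme (1.90 ± 0.15, 0.00544), Mcpt4, a chymase (2.10 ± 0.24, 0.0112), and Gata2 (0.83 ± 0.11, 0.0168). Kit, a receptor that mast cells share with progenitors, was the exception (-0.06 ± 0.08, 0.631). Leaving out wild-type replicate 3 ended the calls of Cpa3, Hdc, Mcpt4, Gata2 and Tpsb2 (limma adjusted p = 0.068 to 0.177), and leaving out knockout replicate 3 those of Mcpt4, Gata2 and Tpsb2 (0.0868 to 0.163). The mean level of the 6 ran from 1.50 to 1.80 on slide 1 and was 3.07 and 2.93 on slide 2. Of 13 macrophage markers 4 rose past the threshold on slide 2 (6.74% of everything tested). Among them were Cx3cr1, a chemokine receptor (2.01 ± 0.12, limma adjusted p = 0.00408), and Tyrobp, a signalling adaptor (1.68 ± 0.10, 0.00408). Lyve1 (-0.23 ± 0.15, 0.349) and Csf1r (0.21 ± 0.16, 0.404) did not pass. Of 6 neutrophil markers 3 rose past the threshold (6.74% of everything tested), among them Mpo (1.94 ± 0.36, limma adjusted p = 0.0348) and S100a9 (1.66 ± 0.25, 0.0229). Elane was lower on slide 2 and did not pass (-1.80 ± 0.91, 0.243). Of 12 haemogenic and progenitor markers 4 rose past the threshold (6.74% of everything tested), among them Runx1 by 1.63 and Gfi1 by 1.71. In the same list 1 fell past it, Tek (-0.83 ± 0.16, limma adjusted p = 0.0377). Of 16 erythroid transcription factors and cofactors 4 rose past it, among them Myb by 1.38, and 0 fell past it. What part these markers have in the Gata1 signal was not tested. Between genotypes 0 of the 6 mast cell markers passed limma's test and 0 had an unadjusted p under 0.05.

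**Figure D3:**
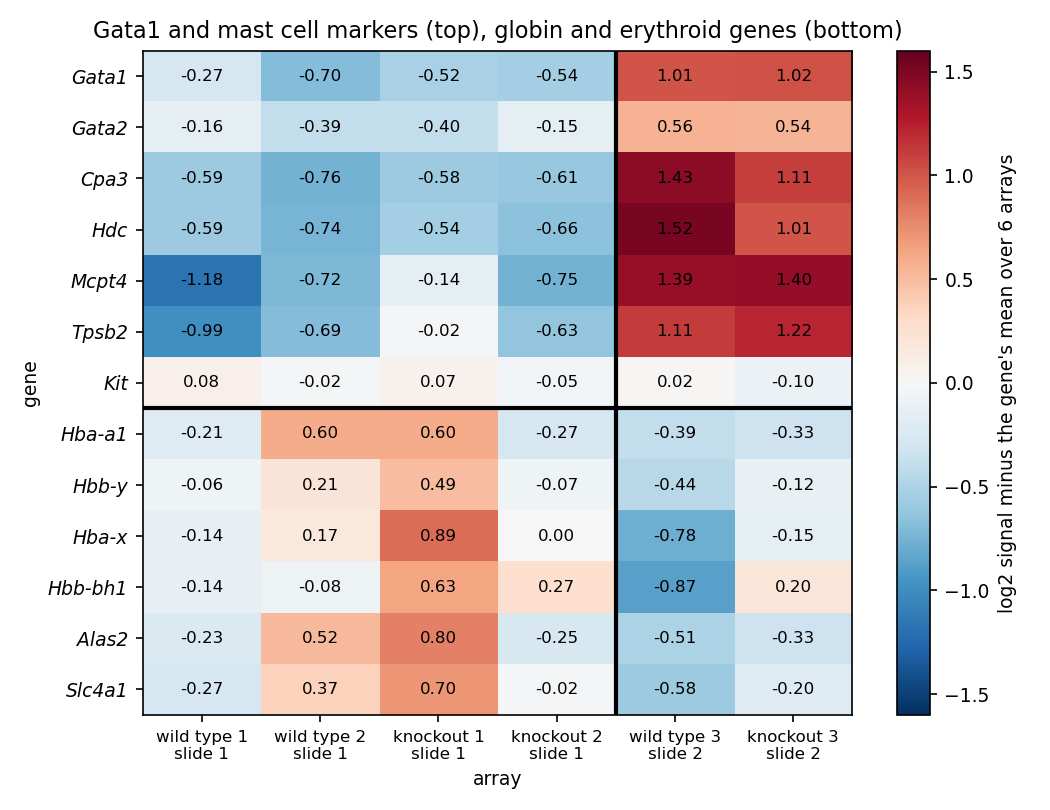
Level of Gata1, 6 mast cell markers, globins, Alas2 and Slc4a1 on each array, as log2 signal minus the gene's mean over the 6 arrays (colour and printed value), with arrays of slide 1 left of the black line and those of slide 2 right of it. Gata1 and the mast cell markers other than Kit are high on both slide 2 arrays, while the globins, Alas2 and Slc4a1 are highest on wild-type replicate 2 or knockout replicate 1.

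Klf1 (NM_010635, chromosome 8), the activator of adult beta globin and many red cell genes, was well above background on 0 of 3 wild-type and 1 of 3 knockout arrays, so it was not tested. Its processed intensities lay between 2.89 and 19.2, and its levels were -6.64, -6.24 and -5.69 in wild type and -4.71, -6.44 and -4.38 in the knockout. The groups overlapped, and an exact two-sided permutation test gave p = 0.3. With 5 of 6 arrays not well above background, no fold is given.

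Genes of the red cell membrane and skeleton varied in whether they were detected. Of 21 listed genes of the red cell membrane and skeleton, 12 could be tested, while Epb42, Rhag, Ank1 and Sptb (ankyrin and beta spectrin), named after their values were seen, were above background on 0 of 6 arrays. None of the 12 passed (limma adjusted over everything tested), and 3 had an unadjusted p under 0.05 (8.03% of everything tested). Of the 12 differences 10 were above 0 (43.5% of everything tested), with a median of 0.22. In 5 of them every knockout array was above every wild-type array, against 6.37% of everything tested. The 12 include the blood group gene Rhd, above background on 2 of 3 wild-type and 3 of 3 knockout arrays. Rhd entered the test only through the knockout, so the count above 0 favours genes that are high there. The 4 with the smallest p were Aqp1, a water channel that endothelium also makes (0.87 ± 0.16, adjusted p = 0.113), the skeleton proteins Dmtn (0.33 ± 0.09, 0.269) and Add2 (0.39 ± 0.11, 0.334), and the glucose transporter Slc2a1 (0.23 ± 0.10, 0.64).

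In the haem pathway only Alad passed among the 14 listed genes of haem synthesis and mitochondrial iron. Of their 14 differences 9 were above 0 (43.5% of everything tested), and the median was 0.02. Alad, which joins the precursors made by the first enzyme into porphobilinogen, read 1.64, 1.81 and 1.59 in wild type and 2.38, 2.66 and 2.52 in the knockout. Among everything tested 0.367% passed as higher in the knockout. Alad rose 1.80-fold there, a difference of 0.84 ± 0.11 (SE, 3 arrays against 3, limma adjusted p = 0.039). The call held in 7 of 16 other settings (adjusted p from 0.0184 to 0.294) and ended when any 1 array was left out (0.113 to 0.159), with the replicate number as a block (0.074), with median centring (0.0602) and without a filter on dim probes (0.294). Next by p came Ppox (-0.27 ± 0.12, adjusted p = 0.656), Cpox (-0.16 ± 0.10) and Slc25a38 (-0.08 ± 0.09), later enzymes and a mitochondrial carrier of the pathway. Of 11 genes of iron uptake, storage and haem transport 0 passed and 0 had an unadjusted p under 0.05, with Hmox1, the haem-degrading oxygenase, at 0.18 ± 0.11 and Steap3, an endosomal ferrireductase, at 0.15 ± 0.11. The probes of Steap3 disagreed: the dimmer, which was not in the fit, read 0.24, 0.35 and 0.57 in wild type and -1.09, -0.79 and -0.67 in the knockout, a difference of -1.24 with no overlap. Those of Slc25a37, a mitochondrial iron importer, also differed, with 0.10 ± 0.25 for the brighter and 1.15, with no overlap, for the dimmer, which was not in the fit.

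The 16 tested erythroid transcription factors and cofactors had 6 differences above 0 and 10 below, with a median of -0.04. None passed limma's test and 0 had an unadjusted p under 0.05, the 4 smallest belonging to Klf3 (0.23 ± 0.13), Cbfa2t3 (-0.15 ± 0.09, with other probes at 0.07 and -0.08), Bcl11a, a repressor of embryonic globin genes (0.23 ± 0.16), and Foxo3 (-0.19 ± 0.13). Among 22 erythroid enzymes, chaperones and late markers 0 passed and 2 had an unadjusted p under 0.05 (8.03% of everything tested). Of these 22, 15 were above 0 (43.5% of everything tested), with a median of 0.08. Of the 22, Car2, carbonic anhydrase 2, had the smallest p (0.44 ± 0.14, limma adjusted p = 0.385). It was followed by Pim1 (0.27 ± 0.11), Ube2l6 (0.26 ± 0.11) and Rhd, a blood group antigen (0.47 ± 0.21). Rhd was above background on 2 of 3 wild-type and 3 of 3 knockout arrays, so it entered the test only through the knockout. Trim10, named after its values were seen, was above background on 0 of 3 wild-type and 3 of 3 knockout arrays and so entered the test only through the knockout. Its difference was 1.15 ± 0.54 (SE), a value that rests on wild-type signals not called above background, so no fold is given. The groups overlapped, and limma's adjusted p was 0.726. The counts of the 22 include Rhd and Trim10, and so favour genes that are high in the knockout.

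Of 15 genes of erythropoietin signalling 0 passed limma's test, and the median was 0.06. An unadjusted p under 0.05 was reached by 2 (8.03% of everything tested). Those were Socs1, a feedback inhibitor (-0.32 ± 0.10, limma adjusted p = 0.425), and Csf2rb2, a cytokine receptor subunit (-0.74 ± 0.25, 0.464). Its near-identical neighbour Csf2rb differed by -0.58 ± 0.28, so that both are uncertain as single genes, and the adaptor gene Sos1 by 0.59 ± 0.29. Among 12 haemogenic and progenitor markers 0 passed and 1 had an unadjusted p under 0.05 (8.03% of everything tested). It was Ptprc, the leukocyte antigen CD45 (0.39 ± 0.15, limma adjusted p = 0.57), followed by Itga2b at 0.29 ± 0.14, Hlf at -0.40 ± 0.19 and Mecom at -0.29 ± 0.14.

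**Figure D4:**
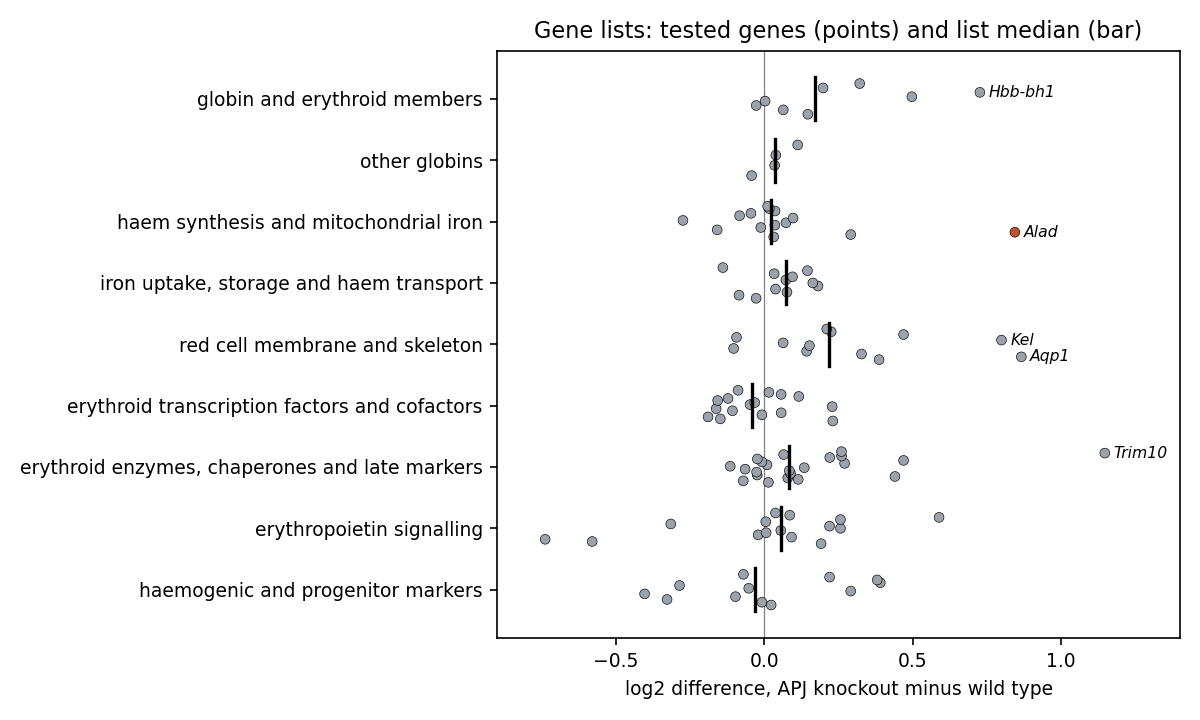
Log2 difference, APJ knockout minus wild type, of each tested gene in the globin and erythroid lists (points) with the list's median (bar), the gene past the adjusted threshold in red. The list of 8 tested members has a median of 0.17 and the red cell membrane list 0.22, while the transcription factor list lies around 0 at -0.04, and Alad stands apart from the other haem pathway genes.

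The genes that flank the globin clusters without belonging to the family were looked at as well. All 10 had differences below 0, with a median of -0.07, where 13681 of all 24235 differences were below 0. Of the 10, 1 passed: Trim12a, a TRIM family gene near the beta globins on chromosome 7. Among everything tested 0.186% passed as lower in the knockout. Trim12a read 0.88, 0.74 and 0.77 in wild type and -0.92, -1.27 and -1.47 in the knockout (limma adjusted p = 0.00811). The call ended under a replicate block (adjusted p = 0.074), without wild-type replicate 2 (0.0679), without knockout replicate 2 (0.0548) and without a filter on dim probes (0.0993), within a range of 0.00489 to 0.0993 over 16 settings. The brightest flanking genes differed little, with Rrm1, a ribonucleotide reductase subunit, at -0.01 ± 0.09, Snrnp25 at -0.05 ± 0.11 and Rhbdf1 at -0.06 ± 0.08 (SE).

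Markers of other blood cells also varied between arrays. Of 13 macrophage markers 12 differences were above 0 with a median of 0.91, 8 had every knockout array above every wild-type array (6.37% of everything tested), 9 had an unadjusted p under 0.05 (8.03% of everything tested) and 0 passed limma's adjusted test, or 1 with median centring, the slide or the replicate number as a block. C1qa, C1qc, Lyz2, Cd14 and Adgre1 were above background on all knockout arrays but not on all wild-type arrays. They entered the test only through the knockout, so these counts favour genes that are high there. The mean level of the 13 ran from -2.00 to -0.97 over wild-type arrays and from -0.95 to -0.24 over knockout arrays. Of 15 platelet and megakaryocyte markers 10 were above 0 (43.5% of everything tested), with a median of 0.12. Of them 0 passed (1 with median centring or the slide as a block), and 4 had an unadjusted p under 0.05 (8.03% of everything tested). In 4 every knockout array was above every wild-type array (6.37% of everything tested). Pf4 differed by 0.48 ± 0.14 (adjusted p = 0.329), Itgb3 by 0.34 ± 0.13 and Vwf, which endothelium makes, by -0.27 ± 0.13. Of 9 keratinocyte markers 0 were above 0, with a median of -1.28 that was -0.20 within slide 1 and -2.75 within slide 2. The part of these cell types in the globin ratios and in Hbb-bh1 was not tested.

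Genes most like the globins were taken as the 5 named genes with the highest Pearson correlation with the mean level of Hbb-y, Hbb-bh1, Hba-x and Hba-a1 over the 6 arrays, out of 13005 that were above background on all arrays and lay outside both the 9 genes and the globin family. They were Gabrd (r = 0.996), Ccdc90b (0.993), Kcnj15 (0.990), Mfap3 (0.990) and Sin3a (0.983). None is known as a red cell gene, and their levels spanned 0.12 to 0.85 over the arrays where the globin mean spanned 1.27. With 6 points from shared arrays such values are a description only. An r of 0.8 or more was reached by 2.72% of 13457 named genes tested. In the lists it was reached by 4 of 22 erythroid enzymes and late markers (among them Tent5c, Ube2l6 and Fam210b), 3 of 14 haem pathway genes (among them Slc25a37 and Tspo2), 3 of 7 fibroblast markers, and 0 of 16 erythroid transcription factors.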

How the data were processed

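RNA of 6 samples, 3 wild type and 3 APJ knockout, was labelled with Cy3 and hybridised to 1 array each. Per the file headers, Agilent Feature Extraction 10.7.3.1 wrote the deposited scanner files, whose processed intensity is linear, background-subtracted and not yet scaled across arrays. In the authors' value table, used as an alternative, each array's intensity is multiplied by 1 factor (2.29 to 3.69, within a relative deviation of 5e-10) whose origin the labels do not state. That table is linear and not centred by gene.

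From these the log2 intensity minus the array's 75th percentile was computed. Spots the scanner software marked as outliers (126 to 179 per array) were left out and spots of 1 probe averaged. Testing required a probe to be well above background on all 3 arrays of a group, and the brightest probe stood for a gene. Symbols came from RefSeq accessions on the probes. A limma 3.58.1 model (R 4.3.3) with genotype as its single term, checked on simulated data, gave two-sided p-values, with Benjamini-Hochberg adjustment across everything tested and a threshold of 0.05. SE is the standard error, SD the standard deviation. The number of arrays limits the precision.

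The rule for named genes took, from each erythroid list, the 4 genes with the smallest p and any past the threshold, and the brightest 3 of each other list, some of which are given by counts only. The values of some listed genes are not reported here, although counts include them. Trim12a passed in a list of globin neighbours. Markers named in the slide comparison other than Cpa3, Hdc, Kit, Lyve1, Csf1r and Elane were chosen after their values were seen. So were the red cell membrane genes named as not above background, Slc25a37 and the genes named for an r of 0.8 or more. The 9 genes and all lists were chosen with earlier results of these data known. The main fit did not pair arrays, and replicate numbers were treated as pairs only in an alternative with a replicate block. The deviations of same-numbered arrays correlated at 0.226, 0.152 and 0.646, although wild-type replicate 1 correlated better with knockout replicate 2 (0.357). The replicates numbered 3, at 0.646, were also the arrays of slide 2. Alternatives were other scalings, filters, the authors' table, a block for slide or for replicate number, and leaving out each array. The planned normexp correction (offset 50) used median in place of mean spot signals.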

Additional observations from a re-analysis of the deposited data

How the results depend on the processing

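The 134 genes and unnamed probes past the threshold (89 higher, 45 lower) became 3 (3 higher, 0 lower) without a filter on dim probes, 285 (184 and 101) with a slide block, 5 (4 and 1) with a replicate block, and 12 to 58 (11 to 43 and 1 to 27) when 1 array was left out. Median centring gave 117 higher and 48 lower, and normexp, run on median spot signals as an alternative chosen after seeing the data, 70 and 41. None of the 8 tested genes of interest passed in any of 16 alternatives, blocks included. The replicate block ended the calls of Alad and Trim12a and changed no call of the 8 genes. Hbb-y, Hbb-bh1, Hba-x and Slc4a1 stayed above 0 in all 16 (0.003 to 0.35, 0.47 to 0.87, 0.18 to 0.71 and 0.052 to 0.59). Differences that changed sign, each smaller than its SE, were Gata1 with normexp (0.013), Hba-a1 (-0.10) and Epor (-0.023) without wild-type replicate 1, Hba-a1 (-0.19), Alas2 (-0.07) and Gata1 (0.47) without wild-type replicate 3, Hba-a1 (-0.30), Alas2 (-0.22) and Gata1 (0.22) without knockout replicate 1, and Gata1 (0.24) without knockout replicate 2. The cause was not tested. When 1 array was left out, Hba-a1 ranged from -0.30 to 0.30, Alas2 from -0.22 to 0.44, Epor from -0.023 to 0.15 and Gata1 from -0.54 to 0.47. The embryonic to later globin ratio ran from 0.34 to 0.64, and from 0.35 to 0.61 with the beta globins included, where the genotypes overlapped under quantile normalization and normexp. Signal over background limits Klf1, Hbb-bh2 and Hbq1a, which could not be tested. Klf1 without the filter gave 1.02 ± 0.58 (limma adjusted p = 0.999), a value that rests on wild-type signals not called above background and is not read as a change.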
